A study of Mus musculus with 6 samples.

Results

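The miR-297, miR-466, miR-467 and miR-669 families are the miRNAs of a large repeated cluster inside the mouse gene Sfmbt2. They were taken here as every row of the deposited miRNA table whose name starts with 1 of those 4 family names, which gave 57 of 1300 rows. The families hold 4 miR-297 rows, 25 miR-466 rows, 10 miR-467 rows and 18 miR-669 rows. By arm, 30 names are 5p, 22 are 3p and 5 carry no arm. The values come from small RNA sequencing of whole ovaries of female C57BL/6J mice, in 3 libraries from mice under hypobaric hypoxia (PU) and 3 from mice at normal pressure (MP). PU mice lived in a decompression chamber at 43.12 kPa with an oxygen pressure of 8.1 kPa. Titles and design text put the simulated altitude at 6500 m, but the descriptions put it at 5000 m. MP mice lived at local pressure, 83.56 kPa with 17.8 kPa of oxygen, at an altitude given as 1588 m or 1500 m.

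Both groups received levonorgestrel and ethinylestradiol by gavage for hormonal synchronization, with doses (0.1 and 0.02 mg/kg) given for the PU mice alone. The design text gives an age of 8 weeks and an exposure of 15 days, while the descriptions give 6 to 8 weeks, and 15, 16 and 17 days for libraries 1, 2 and 3. The labels give 12 h of light and 12 h of dark, except for 13 h of dark for MP2 and 14 h for MP3. Each group had 15 mice, and it is not stated whether RNA was pooled before a library was made. What the p-values measure is thus the spread between libraries, and this may be technical. The labels give 1 batch number to all. The comparison asks how these families stand in the ovary under reduced pressure and oxygen.

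A miRNA is cut from a hairpin precursor whose 5′ and 3′ arms can each give a mature strand, called 5p and 3p. Its seed, the stretch from base 2 to base 8, does most of the pairing with target mRNAs. Sfmbt2 encodes a polycomb-group protein. The gene is imprinted in mice, with expression from the paternal copy in extraembryonic tissue, and its miRNA cluster is known for a role in the mouse placenta. The cluster grew by duplication in rodents, so many of its hairpins are near copies that carry the same few family names. Their mature strands are rich in alternating U and G on the 5p side and in alternating C and A on the 3p side.

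Those repeats are visible in the 4 members with a mature sequence in RefSeq (GRCm38.p6), which are shown because near-identical letters decide how firmly reads can be given to 1 name. All 4 have precursors outside Sfmbt2. The seed is in capitals.
miR-466k: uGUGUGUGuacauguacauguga
miR-466j: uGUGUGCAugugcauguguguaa
miR-467h: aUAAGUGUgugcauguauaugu
miR-466i-3p: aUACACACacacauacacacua
They lie on the plus strand at chr3:85467396-85467418 (miR-466k), chr10:60960802-60960824 (miR-466j), chr9:115381898-115381919 (miR-467h) and chr13:17747552-17747573 (miR-466i-3p). G or U makes up 69.6% of miR-466k, 73.9% of miR-466j and 68.2% of miR-467h. A or C makes up 86.4% of miR-466i-3p. The letters UGUGUG occur in 28 (1.67%) and ACACAC in 11 (0.655%) of 1679 RefSeq mature mouse miRNAs, on the strand given and in any overlap. The seeds of miR-466k, miR-466j and miR-466i-3p occur in no other of these mature miRNAs, and that of miR-467h occurs in 1 other, miR-668-5p. This RefSeq set holds only 4 of the 57 members. The counts of letters and seeds thus leave out most of the families, whose strands may carry them too. All 4 were near the detection limit in ovary: their means over the 6 libraries were 0.150, 0.0783, 0.0318 and 0.149 RPM (reads per 1000000 reads of the library total) for miR-466k, miR-466j, miR-467h and miR-466i-3p.

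The same repeat joins copies on different chromosomes. The hairpin Mir297-1 lies between genes on the minus strand, at chr7:10958437-10958512, and is 76 bases long. The capitals mark 24 bases, positions 14 to 37 of the hairpin, that Mir297a-2 inside Sfmbt2 also holds.
Mir297-1: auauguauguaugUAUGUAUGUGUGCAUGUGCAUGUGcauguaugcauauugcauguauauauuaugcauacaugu
Reads from this stretch cannot be given to 1 of the 2 loci by sequence.

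The label of the cluster was checked against the GENCODE vM21 annotation of GRCm38. A precursor was found by name for 56 of the 57 members, all but miR-466a-5p, and these members have 71 precursors. Of the 71, 65 lie in 1 intron of Sfmbt2 on chromosome 2, on the strand of the gene, and none of the 71 overlaps an exon of a gene that holds it. That intron runs from 10461473 to 10523944 and is number 11 of 22 in the principal transcript. From the first to the last, the precursors span 51617 of its 62472 bases. Of the members, 47 have precursors only there, 4 have them both there and elsewhere, and 5 (the 4 above and miR-466i-5p) only elsewhere. The other 6 precursors are Mir297-1 on chromosome 7, Mir466f-4 and Mir466i on chromosome 13, Mir466j on chromosome 10, Mir466k on chromosome 3 and Mir467h on chromosome 9. Mir466i lies opposite an intron of Cdk13 and Mir466k opposite an intron of Gm37240, and the other 4 lie between genes.

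The block has a regular order. The 10 hairpins of miR-467a stand a median of 2462 bases apart (range 2413 to 4880), with miR-466 and miR-669 hairpins between them, as the map of the intron shows. A name can stand for up to 12 hairpins: miR-669a has 12, miR-467a has 10 and miR-466b has 8. On the same arm, 43 of the 57 members have 20 or more bases in a row in common with the precursor of another member. The 5 names without an arm, and miR-466a-5p without a precursor, were not checked for this. How the authors counted reads that match several names is unstated, so the split of reads among these 43 names is uncertain, and among the unchecked names it is unknown. The precursors of the members are poor in G and C, with a median GC share of 36.8%, against 51.1% for all annotated rows with a precursor.

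**Figure D1:**
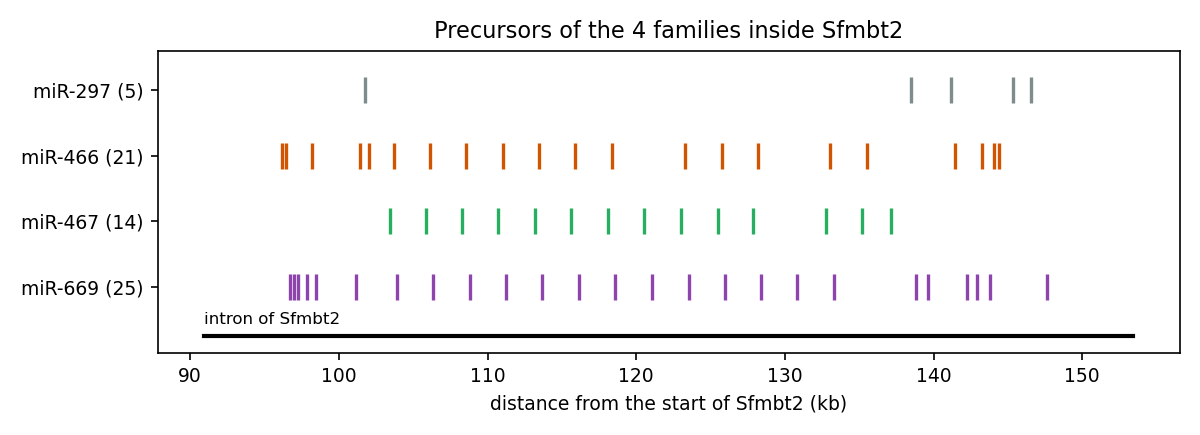
Map of the 65 precursors inside Sfmbt2, with 1 tick for each precursor and 1 row for each family; the horizontal axis is the distance from the start of Sfmbt2 in kb and the bar is the intron. The 14 miR-467 ticks are near evenly spaced and alternate with miR-466 and miR-669 ticks, while 4 of the 5 miR-297 ticks lie near the right end.

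The libraries held 20800777 to 22559146 reads, and 1 read is worth 0.0443 to 0.0481 RPM. Reads assigned to miRNAs made up 38.0 to 41.1% of the PU libraries and 30.4 to 36.3% of the MP libraries, with the lowest share in MP2. Markers fixed for cell types differed as well. The 7 red-cell miRNAs summed to 9459 to 15085 RPM in PU and 726 to 1577 RPM in MP. The 6 ovarian, granulosa and luteal miRNAs, which include the gonadal miR-202, summed to 2229 to 3486 RPM in PU and 1121 to 1428 RPM in MP. That sum is mostly miR-202-5p: limma called 2 of the 6 higher (both arms of miR-202) and 2 lower (miR-132-3p and miR-212-3p). Leukocyte miRNAs (5) summed to 936 to 1080 RPM in PU and 584 to 806 RPM in MP, while the sums of the endothelial, smooth muscle and epithelial lists overlapped between the groups. The 10 listed miRNAs of embryonic stem and trophoblast cells, the tissues the cluster is best known from, were near the floor: they summed to 1.84 to 3.86 RPM in PU and 1.64 to 2.69 RPM in MP, none averaged 1 RPM, and the highest single value was 1.34 RPM. In whole tissue, fewer cells of a type and less RNA per cell cannot be told apart, and the part of these marker differences in the results below was not tested.

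The 4 families were a small part of the ovarian miRNAs. Together the 57 members reached 551, 510 and 430 RPM in PU1, PU2 and PU3, and 472, 299.1 and 441 RPM in MP1, MP2 and MP3. The groups overlapped, with MP2 below all other libraries, and MP1 and MP3 above PU3. The means were 497 ± 61.3 RPM in PU and 404 ± 92.1 RPM in MP (SD, n = 3 each), a ratio of 1.23. The members took 0.113 to 0.134% of miRNA reads in PU and 0.0985 to 0.130% in MP.

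A single strand dominated. miR-467a-5p had 271, 229 and 192 RPM in the PU libraries and 233, 140 and 196 RPM in the MP libraries. It alone made up 46.3% ± 2.51 of the members' reads in PU and 46.9% ± 2.41 in MP (SD, n = 3 each). In mouse cells miR-467a-5p is known to repress Thbs1, the mRNA of the angiogenesis inhibitor thrombospondin. The next 3 miR-467 5p strands followed at means of 31.9 (miR-467c-5p), 31.5 (miR-467d-5p) and 27.1 RPM (miR-467e-5p) over the 6 libraries. Their order is not resolved, since their values overlap between 20.7 and 40.5 RPM. The number of hairpins did not order the levels: miR-669a, with 12 hairpins, had means of 3.70 RPM for its 5p and 7.47 RPM for its 3p strand, while miR-669l-5p, with 1, had 21.1 RPM.

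Detection was deep for a few names and thin for the rest. With at least 1 read, 48 members were detected in each PU library, and 49, 43 and 46 in MP1, MP2 and MP3. Over all 1300 rows the numbers were 973 ± 5.86 in PU and 1037 ± 16.6 in MP (SD, n = 3 each). With at least 10 reads, 29.3 ± 0.577 members remained in PU and 29.7 ± 1.53 in MP (SD, n = 3 each). Of the members, 33 were seen in all 6 libraries, 24 were at 0 in at least 1 library and 3 had fewer than 3 reads in every library. No member had reads in every library of 1 group and none in the other. miR-466p-3p was absent from all PU libraries, and its reads in MP came from 1 library, described with miR-466b-3p below. A count of 0 allows up to 3 reads, 0.133 to 0.144 RPM, and such floors cover counting error only.

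Of the 57 members, 26 reached a mean of 1 RPM over the 6 libraries and were tested: 2 of miR-297, 8 of miR-466, 7 of miR-467 and 9 of miR-669. The last inside was miR-466h-3p at 1.09 RPM and the first outside miR-669e-5p at 0.954 RPM. The other 31 had means of 0.0237 to 0.954 RPM. Only 8 members had a mean of at least 10 RPM, and all 8 are 5p strands.

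**Figure D2:**
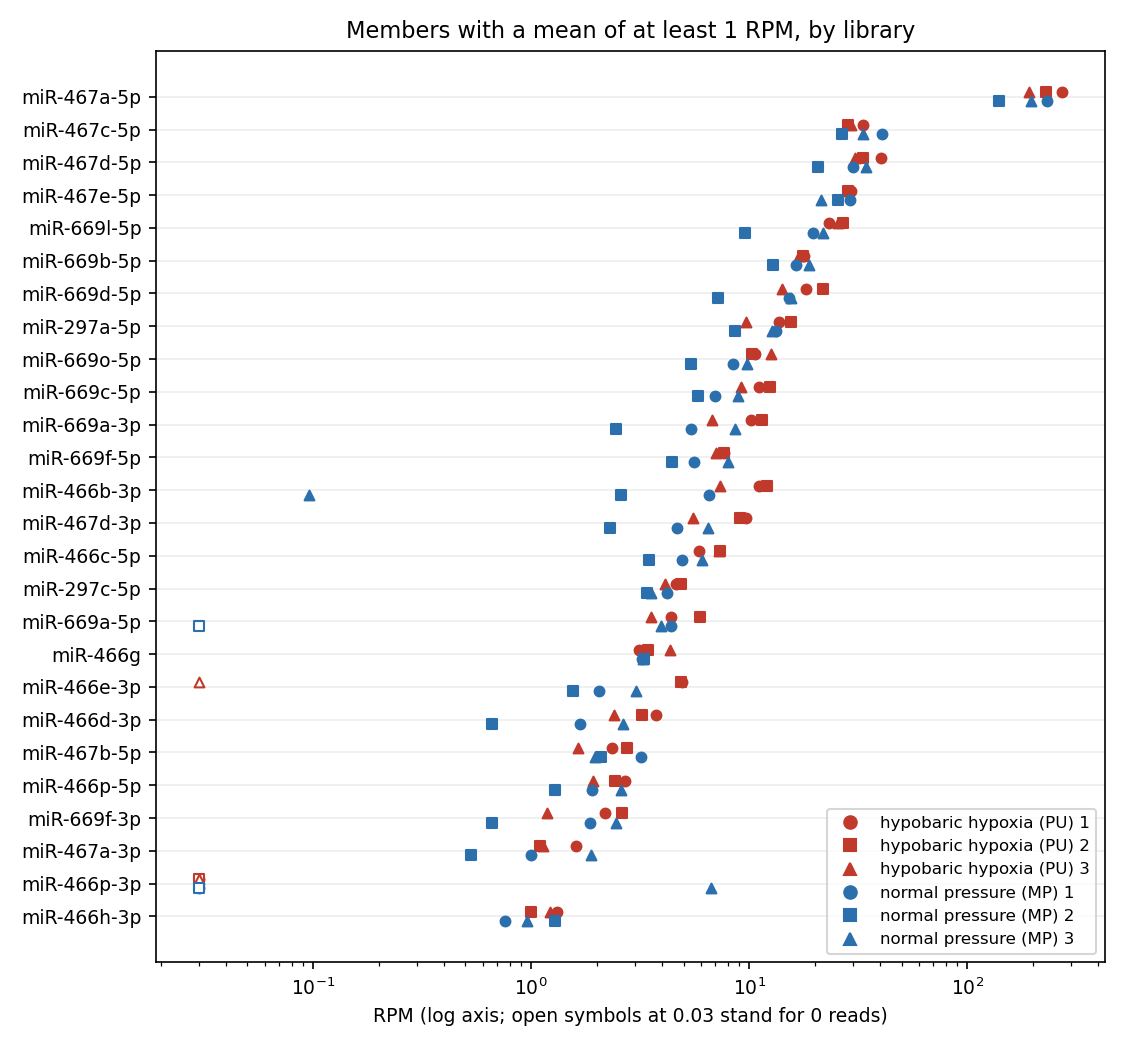
Level of each of the 26 tested members in each library, in RPM on a log axis, ordered by mean; red symbols are PU libraries, blue symbols MP libraries, the shape gives the library number, and open symbols at the left edge stand for 0 reads. miR-467a-5p stands alone at 140 to 271 RPM, MP2 (blue square) is the left-most symbol in most lines, and miR-466b-3p, miR-669a-5p, miR-466e-3p and miR-466p-3p each have libraries far from the rest.

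None of the 26 tested members passed the test of PU over MP. The test was limma on log2(RPM + 1) over all 475 tested miRNAs at an adjusted p of 0.05, and it called 0 members higher and 0 lower. Over the whole table it called 3.16% of tested rows higher and 1.68% lower, 23 rows in all (4.84%). The lowest adjusted p of a member was 0.124, for miR-466b-3p. With an unadjusted p under 0.05 there were 4 members, miR-466b-3p, miR-669c-5p, miR-467d-3p and miR-466d-3p, 15.4% of those tested against 20.2% of all tested rows. edgeR and DESeq2 on the recovered reads also called 0 members, against 5.26% and 12.1% of all tested rows.

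The groups did not overlap, with every PU value above every MP value, for miR-466b-3p, miR-669c-5p, miR-669l-5p and miR-669o-5p. These 4 are 15.4% of the tested members, against 19.2% of all tested rows. No member had every PU value below every MP value, against 7.58% of all tested rows. A log2 change above 0 was found in 23 of the 26, and in 65.7% of all tested rows. The median log2 change was 0.26 over the 26 and 0.15 over all 475. Scaling moved both medians: scaled to miRNA reads, the medians were 0.090 and -0.017, with 18 members above 0, and with TMM and median-of-ratios scaling the members' medians were 0.15 and 0.13. The members' median stood 0.11 above that of all tested rows with the authors' totals.

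**Figure D3:**
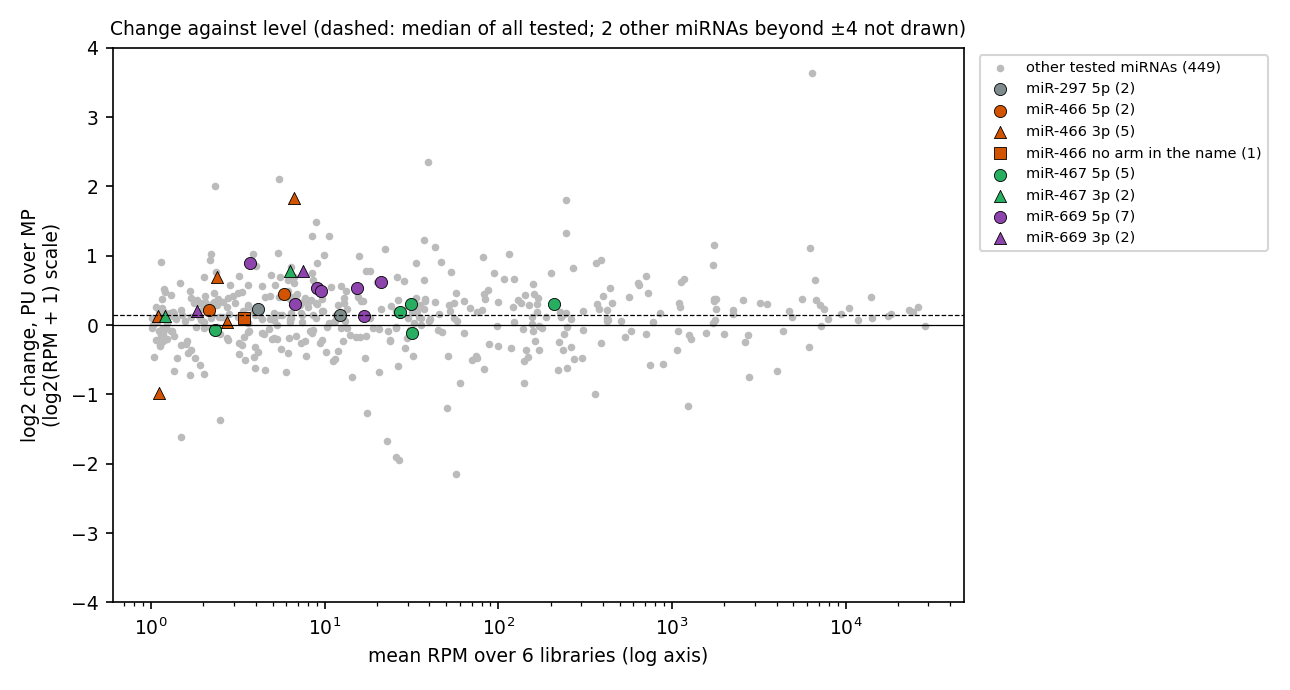
Log2 change of PU over MP on the log2(RPM + 1) scale against the mean RPM over 6 libraries (log axis); grey points are the 449 other tested miRNAs, coloured points the 26 members by family and arm, and the dashed line is the median of all tested. Most members lie between 0 and 1 among the grey points, with miR-466b-3p at 1.83 and miR-466p-3p at -0.98.

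miR-466 is the family with the most names and low levels. Its 25 members summed to 37.1, 37.3 and 29.1 RPM in the PU libraries and to 26.3, 16.5 and 28.9 RPM in the MP libraries. The groups did not overlap by a narrow margin, PU3 against MP3, and overlapped scaled to miRNA reads. With TMM scaling the lowest PU sum was 29.3 and the highest MP sum 28.1 RPM, without overlap. With median-of-ratios scaling these were 29.1 and 28.2 RPM. Of its 8 tested members 7 had a log2 change above 0, none passed the test, and the median was 0.17.

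miR-466b-3p is encoded by 8 hairpins in the intron. It had 11.1, 12.1 and 7.34 RPM in PU1, PU2 and PU3, and 6.53, 2.57 and 0.096 RPM in MP1, MP2 and MP3. All PU values were above all MP values, and MP3 was close to 0. The log2 change was 1.83 ± 0.59 (SE; 95% interval 0.50 to 3.16), which did not pass (limma adjusted p = 0.124). Without MP3 it was 1.08, and without MP1 it was 2.47 and passed (limma adjusted p = 0.0255).

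The low value in MP3 had a counterpart under another name. miR-466p-3p, from 1 hairpin at chr2:10506006-10506094, had 6.68 RPM in MP3 and 0 in the other 5 libraries, so it entered the test through that library alone. The precursors of the 2 names share 38 bases on the 3p arm. Summed, the 2 names had 11.1, 12.1 and 7.34 RPM in PU and 6.53, 2.57 and 6.78 RPM in MP. With the authors' totals the groups of the sum did not overlap, and MP3 stood beside MP1. Scaled to miRNA reads they overlapped, with PU3 at 7.00 and MP3 at 7.03, and with TMM and median-of-ratios scaling they did not. Adding miR-466c-3p and miR-466e-3p, which share 35 to 48 bases with these, gave 16.0, 17.0 and 7.39 RPM in PU and 8.58, 4.12 and 9.90 RPM in MP, which overlap. The log2 change of the sum of 2 names was 0.89, less than the 1.83 of miR-466b-3p alone, and the ratio of means was 1.92. miR-466p-3p and the pairs below, outside the rule for named members, were chosen after their values were seen.

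A further 2 pairs showed the same split. miR-669a-5p had 4.39, 5.96 and 3.53 RPM in PU and 4.38, 0 and 3.94 RPM in MP, while miR-669p-5p had 3.19 RPM in MP2, 0.047 RPM in PU3 and 0 elsewhere. Their precursors share 46 bases. Summed, they had 4.39, 5.96 and 3.58 RPM in PU and 4.38, 3.19 and 3.94 RPM in MP, so the groups overlapped and MP2 no longer stood apart. The log2 change of miR-669a-5p alone was 0.89 ± 0.57 (SE; limma adjusted p = 0.388), or 0.10 without MP2, and that of the sum was 0.21. miR-466m-5p and miR-669m-5p, with 29 shared bases, traded places too: miR-466m-5p had 1.55 RPM in PU3 and 0.905 RPM in MP1 with 0 to 0.089 RPM elsewhere, and miR-669m-5p had 0.897 and 0.715 RPM in PU1 and PU2 and 1.06 RPM in MP3, with 0 to 0.177 RPM elsewhere.

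**Figure D4:**
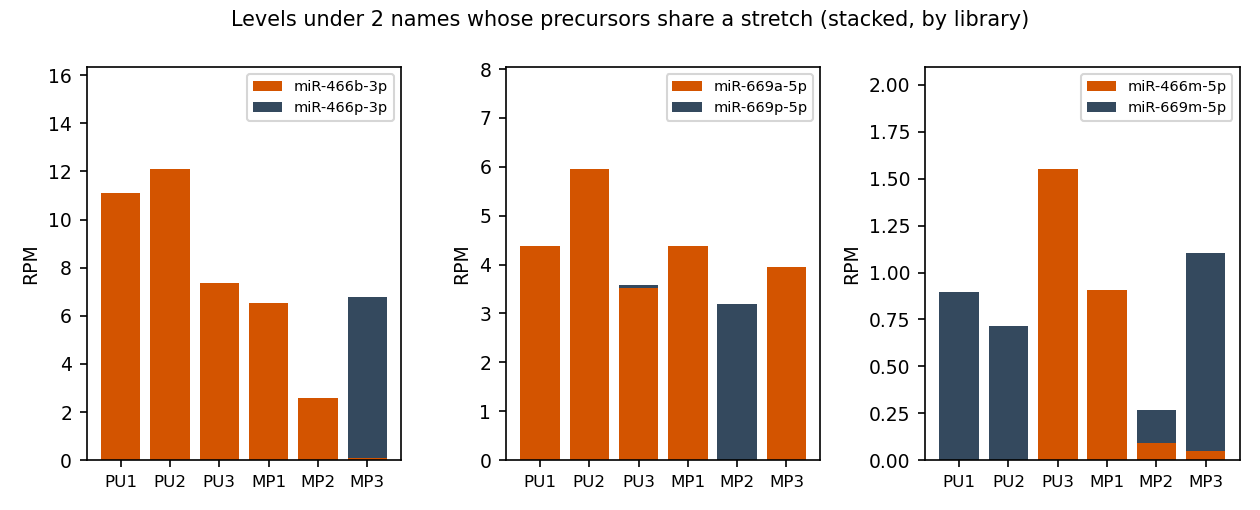
RPM of 3 pairs of names with shared precursor stretches, stacked by library. Most libraries hold nearly all reads of a pair under 1 of its names, and the name changes in MP3 (miR-466p-3p), in MP2 (miR-669p-5p) and in PU1, PU2 and MP3 (miR-669m-5p).

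The other 3p strands of miR-466 were lower still. miR-466d-3p, from chr2:10511967-10512062, had 3.73, 3.24 and 2.40 RPM in PU and 1.67, 0.665 and 2.64 RPM in MP. MP3 lay above PU3, so the groups overlapped, and the log2 change of 0.69 ± 0.30 (SE) did not pass (limma adjusted p = 0.238) and was 0.39 without MP2. miR-466e-3p, which shares up to 45 bases with miR-466b-3p, had 4.91, 4.86 and 0 RPM in PU and 2.05, 1.55 and 3.03 RPM in MP. It was at 0 in PU3 alone, and its log2 change was 0.048 ± 0.61 (SE; limma adjusted p = 0.951). Of the 5p strands, miR-466c-5p was highest, with 5.90, 7.34 and 7.25 RPM in PU and 4.91, 3.46 and 6.06 RPM in MP. MP3 lay just above PU1, and the log2 change was 0.45 ± 0.23 (SE; limma adjusted p = 0.290), or 0.27 without MP2 and 0.28 scaled to miRNA reads.

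Rows whose precursors share at least 20 bases on an arm, directly or through a chain of other rows, were also summed over the whole table before the test. Not all rows of a sum thus share 20 bases with each other, and 1 sum held 17 members. After summing, 443 rows were tested and 6.55% were called. The members formed 6 tested sums and none was called, with 2 at an unadjusted p under 0.05. The sum of miR-466b-3p, miR-466c-3p, miR-466d-3p, miR-466e-3p, miR-466h-3p and miR-466p-3p had 21.1, 21.2 and 11.0 RPM in PU and 11.0, 6.07 and 13.5 RPM in MP. PU1 and PU2 lay above all MP libraries and PU3 among them. Its log2 change was 0.75 ± 0.32 (SE; limma adjusted p = 0.211).

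miR-467 held most of the reads. Its 5 5p strands were all tested and summed to 376.4, 322 and 282 RPM in PU and 335, 215 and 287 RPM in MP. The sums overlapped, with MP2 lowest and MP1 above PU2 and PU3. miR-467a-5p, with the values given above, had a log2 change of 0.30 ± 0.24 (SE; 95% interval -0.25 to 0.85; limma adjusted p = 0.505). It was 0.097 without MP2, 0.46 without MP1 and 0.18 without PU1, and 0.094 scaled to miRNA reads. miR-467d-5p, from chr2:10507630-10507714, had 40.2, 33.4 and 30.5 RPM in PU and 29.8, 20.7 and 34.2 RPM in MP. The groups overlapped through MP3, and the log2 change was 0.31 ± 0.24 (SE; limma adjusted p = 0.498), or 0.11 without MP2, 0.20 without PU1 and 0.11 scaled to miRNA reads.

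miR-467c-5p and miR-467e-5p differed from it in pattern. miR-467c-5p, from chr2:10473931-10474027, had 33.2, 28.4 and 29.4 RPM in PU and 40.5, 26.6 and 33.1 RPM in MP. MP1 was highest and MP2 lowest, and the log2 change was -0.12 ± 0.22 (SE; limma adjusted p = 0.766). Its PU values were all below its MP values scaled to miRNA reads, with TMM and with median-of-ratios scaling. It was then the 1 member of 26 so placed, against 16.2%, 13.1% and 13.7% of all tested rows. miR-467e-5p, from chr2:10505721-10505807, had 29.4, 28.5 and 28.5 RPM in PU and 29.2, 25.5 and 21.4 RPM in MP, and its log2 change was 0.19 ± 0.20 (SE; limma adjusted p = 0.614). Its PU values lay within about 1 RPM of each other and MP1 lay among them, and scaled to miRNA reads its log2 change was -0.010.

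The 3p strands of miR-467 were led by miR-467d-3p, with 9.67, 9.11 and 5.56 RPM in PU and 4.67, 2.31 and 6.49 RPM in MP. PU1 and PU2 lay above all MP libraries and PU3 between MP1 and MP3. The log2 change was 0.78 ± 0.33 (SE; 95% interval 0.035 to 1.52) and did not pass (limma adjusted p = 0.234). It was 0.45 without MP2.

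All 9 tested miR-669 members had a log2 change above 0, from 0.13 to 0.89 with a median of 0.53, and none passed the test. Under the 3 other scalings 8 or 9 of the 9 stayed above 0, the exception being miR-669b-5p, at -0.064 scaled to miRNA reads and -0.011 with median-of-ratios scaling. The 5p strands of the family summed to 94.7, 105 and 89.9 RPM in PU and 78.3, 49.3 and 89.1 RPM in MP. PU3 was barely above MP3, and with each of the 3 other scalings the groups overlapped.

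miR-669l-5p, from chr2:10468971-10469068, was the highest of the family. It had 23.2, 26.9 and 25.5 RPM in PU and 19.6, 9.62 and 21.8 RPM in MP. All PU values were above all MP values, with MP2 far below the other 5, and the log2 change was 0.61 ± 0.30 (SE; limma adjusted p = 0.280). Without MP2 it was 0.27. miR-669o-5p, from chr2:10514300-10514395, had 10.7, 10.3 and 12.6 RPM in PU and 8.43, 5.41 and 9.76 RPM in MP, again without overlap, and its log2 change was 0.49 ± 0.24 (SE; limma adjusted p = 0.287), or 0.27 without MP2 and 0.30 scaled to miRNA reads.

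miR-669c-5p, from chr2:10509296-10509404, had 11.0, 12.4 and 9.18 RPM in PU and 7.00, 5.81 and 8.85 RPM in MP. The groups did not overlap, with PU3 closest to MP3. The log2 change was 0.54 ± 0.22 (SE; 95% interval 0.041 to 1.04; limma adjusted p = 0.220) and lay between 0.41 and 0.68 when 1 library was left out, and at 0.36 scaled to miRNA reads. Of the 4 members without overlap, the groups of 3 still did not overlap with TMM scaling (12.2% of all tested rows higher without overlap), of 2 with median-of-ratios scaling (12.0%) and of 1, miR-466b-3p, scaled to miRNA reads (10.3%).

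miR-669d-5p had 18.3, 21.7 and 14.1 RPM in PU and 15.3, 7.18 and 15.5 RPM in MP, and its log2 change was 0.53 ± 0.31 (SE; limma adjusted p = 0.344). PU3 lay below MP1 and MP3, and without MP2 the log2 change was 0.20. miR-669b-5p was flatter, with 17.9, 17.6 and 16.9 RPM in PU and 16.5, 12.9 and 18.8 RPM in MP, and its log2 change was 0.13 ± 0.21 (SE; limma adjusted p = 0.737). MP3 was its highest library.

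miR-669a-3p is a strand of 12 hairpins; miR-669a is known in mouse heart progenitors as a repressor of MyoD, the master factor of skeletal muscle. It had 10.2, 11.4 and 6.73 RPM in PU and 5.38, 2.44 and 8.61 RPM in MP. PU1 and PU2 lay above all MP libraries and PU3 below MP3. The log2 change was 0.78 ± 0.37 (SE; 95% interval -0.045 to 1.61; limma adjusted p = 0.274). It was 0.39 without MP2 and 1.13 without MP3.

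miR-297 was the smallest family and its 5p strands were the ones seen. miR-297a-5p, from 3 hairpins in the intron and Mir297-1, had 13.6, 15.6 and 9.65 RPM in PU and 13.3, 8.64 and 12.8 RPM in MP. The groups overlapped, with PU3 and MP2 low, and the log2 change was 0.15 ± 0.25 (SE; limma adjusted p = 0.754). It was -0.043 scaled to miRNA reads. miR-297a-3p had 0, 0 and 0.141 RPM in PU and 0.333, 0 and 0 RPM in MP, at most 7 reads in a library.

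As the reads were assigned to names, the dominant arm differed between families and, in miR-466 and miR-669, between names. Over the 6 libraries, the 5p strand of miR-467a was 174 times its 3p strand, and that of miR-467d 4.996 times. In miR-466 the 3p strand was the higher for miR-466b (8.32 times), miR-466d (23.4 times) and miR-466e (39.4 times), while miR-466c was nearly all 5p (5.82 against 0.0317 RPM). In miR-669, miR-669a was higher in 3p (2.02 times). Higher in 5p were miR-669b (709 times), miR-669e (30.1 times), miR-669f (3.69 times) and miR-669m (12.0 times). A read can match the same arm of several hairpins, so these ratios belong to names, not to single hairpins. The split between names is itself uncertain. On the 3p arm the precursors of miR-466c share 48 bases with those of miR-466b and 45 with that of miR-466e. The 3p reads of miR-466c may thus stand under those names, and a difference in arm between the 3 was not tested.

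Summed over the families, the 3p strands had 46.1, 46.4 and 26.9 RPM in PU and 25.7, 12.5 and 33.7 RPM in MP. PU1 and PU2 lay above all MP libraries, and PU3 lay between MP1 and MP3. The means were 39.8 ± 11.2 RPM in PU and 24.0 ± 10.7 RPM in MP (SD, n = 3 each), a ratio of 1.66. The 5p strands averaged 453 ± 51.3 RPM in PU and 375.9 ± 82.7 RPM in MP (SD, n = 3 each), a ratio of 1.20. By family the 3p ratios were 1.70 for miR-466, 1.65 for miR-467 and 1.62 for miR-669, and the 5p ratios 1.28, 1.17 and 1.33. Taken name by name the order was the reverse. The median log2 change was 0.20 over the 9 tested 3p strands and 0.30 over the 16 tested 5p strands. These 3p strands include miR-466p-3p and miR-466e-3p, whose split of reads with other names is uncertain. With rows of shared stretches summed as above, the order was not the reverse. The log2 changes were then 0.75, 0.70 and 0.72 for the tested 3p sums and 0.26, 0.42 and 0.30 for the tested 5p sums. The 3p share of 5p and 3p reads was 7.98% ± 1.48 in PU and 5.82% ± 1.75 in MP (SD, n = 3 each), with MP3 at 7.71% and PU3 at 6.32%. The difference between the arms was not tested, since the members were chosen with these values known.

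**Figure D5:**
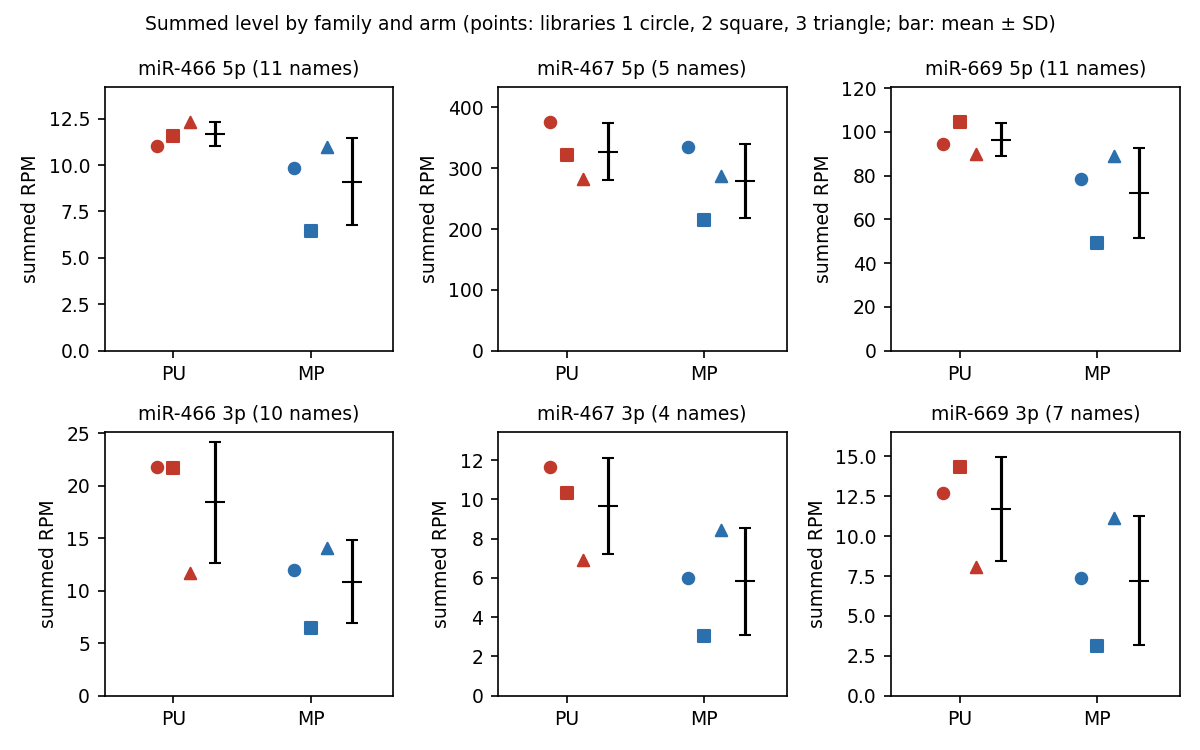
Summed RPM of the 5p strands (upper row) and 3p strands (lower row) of miR-466, miR-467 and miR-669, with 1 point for each library, PU left of MP, and bars of the mean ± SD of 3 libraries; axes start at 0. The 3p panels show PU1 and PU2 above all MP points and PU3 among them, and MP2 (square) is the lowest MP point in all 6 panels.

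MP2 and PU3 recur in these values. MP2 was the lowest of the 6 libraries for 19 of the 26 tested members, against 42.7% of all tested rows. PU3 was the lowest of the 6 for 2 of the 26, against 15.4% of all tested rows. It was the lowest PU library for 17 of 26. No share over all tested rows was taken for that count, so it cannot be read as a trait of the members. On a principal component analysis of all tested rows, MP2 and PU3 stood apart from the other libraries on the second component. Without MP2, 27 members passed the filter, 18 had a log2 change above 0, and their median was 0.11, beside 0.10 for all tested rows. Without MP2 and PU3, 24 of 28 were above 0 and the median was 0.20, beside 0.11 for all. With either removal, 0 members passed the test, while 18 of 479 rows passed without MP2 and 49 of 479 without both.

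Change was also set against precursor GC share over the whole table. Over the 424 tested rows with a precursor, the Spearman correlation between precursor GC share and log2 change was -0.22, given as a description over miRNAs that share libraries, and over the 398 of them that are not members it was -0.21. The 83 other tested miRNAs with a precursor GC share no higher than the members' highest (42.5%) had a median log2 change of 0.18, with 78.3% above 0. After a per-library correction for precursor GC share, chosen after the data were seen, 13 of the 26 members had a log2 change above 0. The median was then 0.0055 for the members and 0.013 for all 424. The correction was fitted on all 424 rows with the members among them. It thus takes out part of any shift the members share, and cannot tell such a shift from one that follows GC share. The relation within the members, and the part of GC share in their values, was not tested.

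For comparison, 2 other clusters were set beside the families. The imprinted Dlk1-Dio3 cluster had 52 tested rows, of which limma called 1 higher and 0 lower, edgeR called 0 and DESeq2 4, and 9 had an unadjusted limma p under 0.05, with 46 above 0 and a median log2 change of 0.30. The X-linked germline cluster around miR-465 had 11 tested rows, of which 0 were called by limma, edgeR or DESeq2 and 2 had an unadjusted limma p under 0.05, with 10 above 0 and a median of 0.33. The members, with 23 of 26 above 0 and a median of 0.26, stand beside these, and the difference between the clusters was not tested.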

How the data were processed

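The deposited values are labelled TPM, but the authors' numbers are reads per 1000000 (RPM) of a library total. In each library 100% of values were whole multiples of 1 read (tolerance 0.0005 RPM), and these recovered reads entered alternatives only. Bowtie2, DESeq2 and GRCm38.p6 appear in the submitters' processing notes with no role or version, and what the totals hold beyond miRNA reads is unstated. Per the labels' protocols, 1.3 µg of RNA entered each gel-selected library, read as single-end 50 bases.

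The comparison, PU over MP, used limma 3.58.1 in R 4.3.3 on log2(RPM + 1), two-sided, with a variance trend and Benjamini-Hochberg adjustment over the 475 rows with a mean of at least 1 RPM. This scale understates changes of low miRNAs. Sums over members are descriptions without a test. edgeR 4.0.16 and DESeq2 1.42.0 were alternatives. The fit was tested on simulated data with log2 changes of 2 up or down and a dispersion of 0.05. It called 100% of the changed and 2.21% of the unchanged rows. The members' median log2 change was 0.26, so the simulation does not show whether changes of that size would be called. Python 3.11.15, pandas 2.3.3 and numpy 2.4.6 made the summaries and matplotlib 3.10.9 the figures. Within a group, libraries differed beyond sampling noise (chi-square over degrees of freedom of at least 119).

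Named members are the 10 tested members with the smallest p, the 10 with the highest mean, and the highest of each family and arm; others were named after their values were seen. The members, lists and tests were chosen with earlier results of these data known. Precursors were matched by name to GENCODE vM21, and mature sequences to RefSeq, which matched 4 of 57. The replicate numbers were not taken to pair the libraries, so they were not used as a block in the main fit. Libraries of the same number do share the days of exposure given in the descriptions.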

Additional observations from a re-analysis of the deposited data

How the results depend on the processing

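In 20 of 22 alternative settings, 0 members were called higher and 0 lower, while 10 to 57 rows of the whole table were called. The replicate block joins libraries that share a number and the described days of exposure (same-number correlations 0.35, -0.47 and -0.29). With it 1 member was called, miR-466b-3p (limma adjusted p = 0.0368), among 23 of 475 rows called. With 1 library left out, 0 to 1 members were called higher and 0 lower, the 1 being miR-466b-3p without MP1. There 21 of 477 rows were called. Of 344 values of the 16 tested named members, 324 kept direction and side of the threshold and 18 changed sign, all of them small. Many of the 324 could not change direction. Another filter, no variance trend, the replicate block alone and the sum of rows of the same mature sequence left each member's log2 change as it was. These settings could move only the p. For miR-467c-5p, leaving out 1 library gave -0.27 to 0.027. For miR-467e-5p the log2 change was -0.010 scaled to miRNA reads, -0.0065 in edgeR and -0.071 with the precursor GC correction, with or without the replicate block. For miR-669b-5p it was -0.064 scaled to miRNA reads, -0.011 with median-of-ratios scaling, -0.050 in edgeR, -0.039 in DESeq2, -0.13 with the GC correction (with or without the block) and -0.0094 to 0.25 with 1 library left out. For miR-297a-5p it was -0.043 scaled to miRNA reads, -0.021 in edgeR, -0.0062 in DESeq2, -0.11 with the GC correction (with or without the block) and -0.035 to 0.33 with 1 library left out. The cause was not tested. The number of members detected differed by 2 (PU minus MP) at 1 read, by -0.667 at 3 reads and by -0.333 at 10 reads. Leaving out 1 library gave 0.5 to 3.5 at 1 read, and log2 ratios of the summed level from 0.12 to 0.43. A correction for mature GC share could not be run for the members, since no tested member has a mature sequence in RefSeq. Depth limits the 31 untested members.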
